A study of Mus musculus with 4 samples.

Results

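The cells described here are macrophages of mouse liver that carried Spp1 or Gpnmb RNA and no Fcrls RNA. They were taken from 4 single-cell RNA libraries by a rule on unique molecular identifiers (UMIs, counts of captured RNA molecules): at least 3 UMIs of Csf1r and Lyz2 together with at least 1 of Csf1r, fewer than 3 of Clec4f, none of Fcrls, at least 3 of Gpnmb and Spp1 together, none of Cd3e and fewer than 2 of Cd79a. In all, 710 of 42454 barcodes that passed the quality limits met the rule: 10 in the KO premalignant, 19 in the WT premalignant, 73 in the KO eHCC and 608 in the WT eHCC library. Each library stands for 1 combination of a genotype label (Mef2d KO or WT) and a tissue (premalignant liver, or liver tumour tissue that the submitters call eHCC, early hepatocellular carcinoma). Mef2d encodes a transcription factor. Which part of the gene was deleted, in which cells and with which driver, how tumours were induced, and how many animals stand behind a library are left unstated by the labels. With 1 library per group there was no replicate, so no test between groups was possible, and each interval below is an exact 95% interval that covers counting error only.

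Spp1 encodes osteopontin, a secreted phosphoprotein that binds integrins and CD44, and Gpnmb encodes a transmembrane glycoprotein of lysosome-rich cells. Macrophages with RNA of both genes and of Trem2, a lipid-sensing receptor, and Cd9 are known from fibrotic and fatty liver and from tumours, where they are often called lipid-associated or scar-associated macrophages. They are generally held to arise from recruited monocytes, and they differ from Kupffer cells, which reside in the sinusoids and carry Clec4f, Timd4 and Vsig4. Fcrls, an Fc receptor-like gene, marks microglia and some other tissue macrophages.

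The name was checked against cell type markers. Of the 8 macrophage markers, Csf1r and Lyz2 are read by the rule, so they are no check of the name. In both eHCC libraries all 8 were found in at least 10% of the 73 and 608 barcodes. Their summed levels were 15016 and 22266 CPM (the UMIs of a gene over all UMIs of the pooled barcodes, scaled to a total of 1000000). Lyz2 made 7600 and 16514 CPM of these sums and Csf1r 343 and 421 CPM. In the same libraries, barcodes with T cell RNA (at least 2 Cd3e UMIs and none of Csf1r, called T-gated here) held 128 and 595 CPM of these markers. Of 6 Kupffer markers, Clec4f, Timd4, Vsig4 and Marco were at 0 in KO eHCC, while Cd5l (198 CPM) and Clec1b (73.0 CPM) were found in 11.0% and 26.0% of its barcodes. In WT eHCC only Timd4 was at 0 and none of the 6 reached 10% of barcodes, with 95.3 CPM for all together against 271 CPM in KO eHCC. Clec4f is limited by the rule. The monocyte markers Ly6c2, Ccr2, Vcan, Chil3, Plac8 and F13a1 were found in 15.1% (Vcan) to 84.9% (Plac8) of KO barcodes. In WT they were found in 30.8% (Vcan) to 87.2% (Chil3), so these markers do not separate the barcodes from monocytes. Ly6c2 stood at 466 and 143 CPM, under the 807 and 607 CPM of T-gated barcodes. At least 1 Ly6c2 UMI with fewer than 3 of C1qa, C1qb and C1qc together was seen in 22 KO and 72 WT barcodes. Trem2 was found in 50 of 73 KO eHCC and 539 of 608 WT eHCC barcodes (68.5% and 88.7%), against 0.493% and 9.34% of T-gated barcodes, whose median depths were 7739 and 7145 UMIs against 17323 and 19065 in the macrophages. After thinning to 2000 UMIs per barcode the shares with Trem2 were 31.5% and 49.3%. Csf1r and Lyz2 are part of the rule, and Adgre1, Cd68, C1qa, C1qb and C1qc were each found in 54.8% to 98.6% of the KO and 80.4% to 93.9% of the WT barcodes.

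The premalignant barcodes fitted the name less well. Markers of bile duct cells (Krt19, Krt7 or Epcam) were present in 4 of the 10 KO and 5 of the 19 WT premalignant barcodes, and those few barcodes held 1379 of 1575 (87.6%) and 2157 of 2259 (95.5%) of the Spp1 and Gpnmb UMIs. Bile duct epithelium is itself a known source of Spp1. Doublet scoring marked 1 of 10 and 12 of 19, and 5 and 4 barcodes had neither a doublet mark nor a bile duct marker. Dendritic cell markers were present in 7 of 10 and 9 of 19, and the 6 of them summed to 449 and 268 CPM, against 184 and 183 CPM in T-gated barcodes. Ccr7, 1 of the 6, made 149 and 153 CPM of the T-gated sums and 8.40 and 0 CPM of the others. Trem2 was seen in only 2 of 10 and 10 of 19. The premalignant counts are therefore given below as barcodes that met the rule, and no gene ratio was taken on them. In KO eHCC all 4 bile duct markers were at 0, and in WT eHCC they summed to 27.4 CPM.

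Depth and other cell types in the eHCC libraries were as follows. The 4 libraries held 56458438 to 118594527 UMIs, and passing libraries shared 23 to 45 barcode sequences pairwise, none of them among these macrophages. Doublet scoring marked 7 of 73 and 60 of 608. Liver cell markers (Alb and 4 others) summed to 34.9 CPM in KO and 3000 CPM in WT, where 92.9% of the Alb UMIs lay in 5 of the 608 barcodes. Neutrophil markers summed to 4603 and 2311 CPM, and in KO 67.8% of the S100a8 UMIs lay in 1 barcode. Fibroblast markers summed to 1.94 and 453 CPM, with 98.1% of the WT Col1a1 UMIs in 5 barcodes. Red cell markers summed to 3774 and 1358 CPM, against 13218 and 1138 CPM in T-gated barcodes. The part of these cell types in the ratios below was not tested beyond the settings named there.

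Barcodes that met the rule made up 0.105% (0.0505 to 0.194) of passing barcodes in KO premalignant, 0.139% (0.0834 to 0.216) in WT premalignant, 0.814% (0.639 to 1.02) in KO eHCC and 5.91% (5.47 to 6.39) in WT eHCC. The share was lowest in the premalignant libraries, whose intervals overlap, and highest in WT eHCC. The share in KO eHCC was 7.26-fold below that in WT eHCC (log2 ratio -2.86, -3.23 to -2.51). The denominator matters, because gated myeloid barcodes as a whole, those that met the Csf1r, Lyz2, Clec4f, Cd3e and Cd79a limits, were 10.5% of passing barcodes in KO eHCC and 36.9% in WT eHCC. Among gated myeloid barcodes the macrophages with Spp1 or Gpnmb were 4.02%, 5.59%, 7.75% and 16.0% in the same order of libraries, and the eHCC ratio was -1.05 (-1.42 to -0.70). Fcrls itself was carried by 13 of 942 gated barcodes in KO eHCC and 1895 of 3790 in WT eHCC. Among gated barcodes without Fcrls the shares were 7.86% and 32.1%, a log2 ratio of -2.03 (-2.40 to -1.68). From premalignant liver to eHCC the share of passing barcodes was higher by 2.95 (1.99 to 4.07) in KO and by 5.42 (4.76 to 6.16) in WT on the log2 scale, and KO and WT premalignant differed by -0.40 (-1.66 to 0.78).

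**Figure D1:**
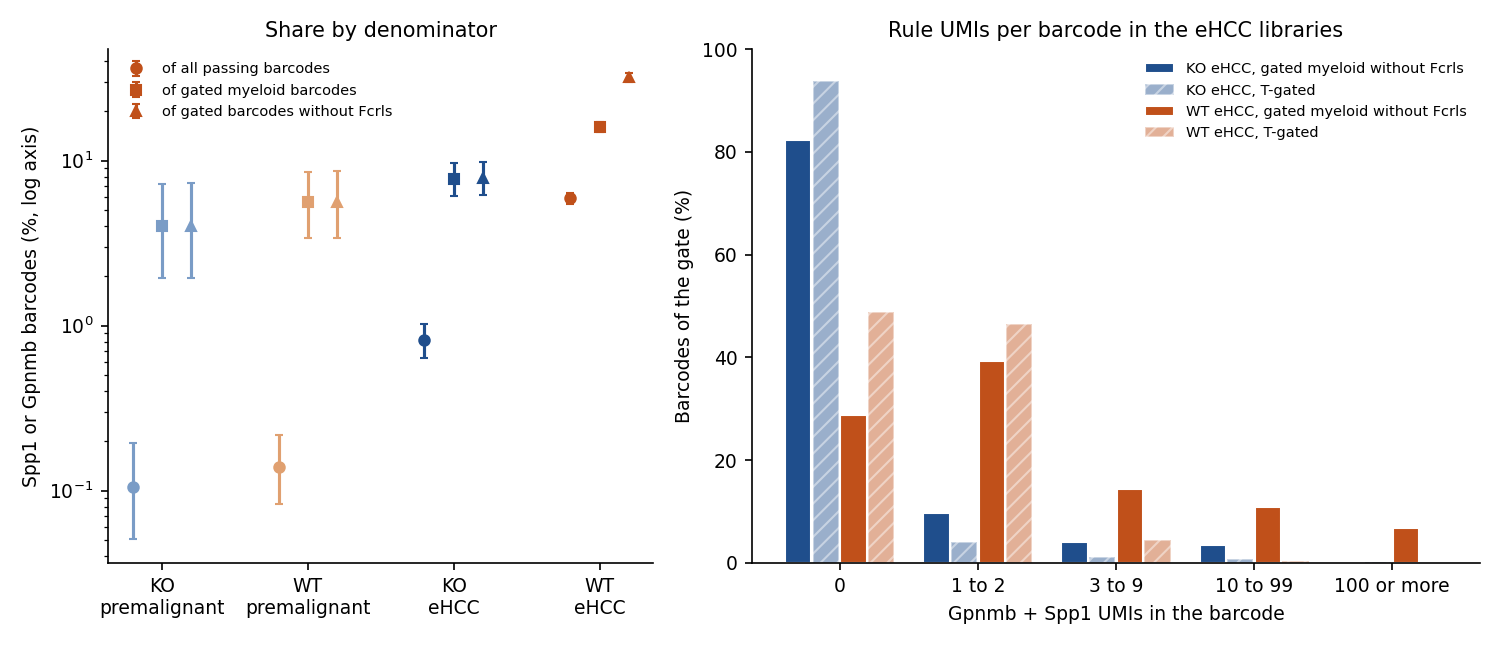
Left, barcodes that met the rule as a percentage (log axis) of passing, gated myeloid and gated Fcrls-free barcodes in each library, with exact 95% intervals. Right, the share of gated Fcrls-free and of T-gated barcodes of the eHCC libraries by their UMIs of Gpnmb and Spp1 together; in WT eHCC 46.5% of T-gated barcodes had 1 to 2, and 6.81% of gated Fcrls-free barcodes had 100 or more.

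Spp1 and Gpnmb chose these barcodes, so their levels are a description only. Spp1 summed to 6521 (KO) and 4711 CPM (WT) in the premalignant and 531 (KO) and 4800.05 CPM (WT) in the eHCC barcodes. In KO eHCC a barcode held 0 to 96 Spp1 UMIs with a median of 4, and in WT eHCC 0 to 4155 with a median of 11. Gpnmb summed to 92.4, 137, 394 and 179 CPM, and all 22 UMIs of KO premalignant lay in 1 barcode. Gpnmb had at least 1 UMI in 43 of 73 KO eHCC (58.9%) and 158 of 608 WT eHCC barcodes (26.0%), against 0.641% and 2.70% of T-gated barcodes. After thinning the shares with Gpnmb were 24.7% and 12.1%. The WT eHCC macrophages were thus mainly Spp1 barcodes, with 450 on Spp1 alone, 9 on Gpnmb alone and 149 with both, while the KO eHCC macrophages split into 30, 18 and 25. At 100 or more UMIs of the 2 genes together stood 129 WT eHCC barcodes and 2 KO eHCC barcodes. Just inside the threshold, with 3 or 4 UMIs, were 19 KO and 163 WT eHCC barcodes, and just outside it, with 1 or 2, were 91 and 743. When at least 3 UMIs of Gpnmb alone were asked for, 37 KO and 93 WT eHCC barcodes remained and the log2 ratio of shares was -1.13 (-1.72 to -0.57).

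Spp1 RNA in barcodes of other cell types bears on macrophage barcodes near the threshold. At least 1 Spp1 UMI was present in 5.54% of the 4059 T-gated barcodes of KO eHCC and in 49.9% of the 2708 of WT eHCC. At least 3 UMIs of Gpnmb and Spp1 together were present in 2.09% and 4.80% of them, and in 4.19% and 9.24% of those with 10000 or more UMIs. In KO eHCC 93.9% of T-gated barcodes had 0 UMIs of the 2 genes, 32 had 10 to 99 and 3 had 100 or more. In WT eHCC 48.7% had 0, 11 had 10 to 99 and 1 had 100 or more. Among B-gated barcodes (at least 2 Cd79a UMIs, none of Csf1r or Cd3e), 1.17% in KO and 40.3% in WT eHCC had a Spp1 UMI. The source of this RNA was not tested. Thinned to 2000 UMIs, 0.544% and 0.558% of T-gated barcodes had 3 or more, while 1.95% of KO eHCC and 20.2% of WT eHCC gated myeloid barcodes did. Summed Spp1 was 39.5 and 106 CPM in T-gated barcodes, below the 531 and 4800.05 CPM of the macrophages. In gated barcodes with Fcrls, Spp1 summed to 314 (KO) and 3426 CPM (WT) and Gpnmb to 182 and 158 CPM. RNA of the 2 genes was therefore not particular to gated barcodes without Fcrls. Gpnmb stood at 3 or more UMIs in 0 of 4059 and 1 of 2708 T-gated barcodes, against 37 of 73 and 93 of 608 of the macrophages.

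The stretches upstream of Spp1 and Gpnmb are shown because the rule reads these 2 genes. They are the 250 bases before the gene start in RefSeq (GRCm38.p6, strand of the gene), Spp1 from the first of its 2 listed starts at chr5:104434861-104435110 and Gpnmb at chr6:49036268-49036517, both on the plus strand. Capitals mark matches, on either strand, to CACGTG and CATGTG (E-box motifs, the kind that MiT/TFE factors bind), TGANTCA (AP-1) or GAGGAAGT (the PU.1 type).
Spp1: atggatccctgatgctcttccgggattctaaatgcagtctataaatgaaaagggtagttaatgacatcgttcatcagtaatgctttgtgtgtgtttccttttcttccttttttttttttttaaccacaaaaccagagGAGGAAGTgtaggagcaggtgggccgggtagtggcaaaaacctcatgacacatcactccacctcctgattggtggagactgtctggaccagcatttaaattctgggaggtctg
Gpnmb: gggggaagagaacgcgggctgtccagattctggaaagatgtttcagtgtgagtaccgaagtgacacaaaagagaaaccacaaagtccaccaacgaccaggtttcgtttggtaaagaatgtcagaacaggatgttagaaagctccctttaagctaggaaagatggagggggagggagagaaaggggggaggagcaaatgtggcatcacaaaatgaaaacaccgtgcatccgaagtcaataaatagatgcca
Spp1 held 1 match, GAGGAAGT, which starts 113 bases before the gene start, while the window at its other start (chr5:104435942-104436191) and the Gpnmb window held none of the 4. Over 32851 promoter windows of this length CACGTG was found in 6.02%, CATGTG in 12.3%, TGANTCA in 6.75% and GAGGAAGT in 2.44%. These are matches of letters, and no binding was measured.

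The macrophages with Spp1 or Gpnmb were next compared, within each eHCC library, with 3 other sets of gated myeloid barcodes: C1q barcodes (no Fcrls, fewer than 3 UMIs of Gpnmb and Spp1, at least 3 of C1qa, C1qb and C1qc), Ly6c2 barcodes (as before but fewer than 3 of C1q and at least 1 of Ly6c2) and barcodes with Fcrls. These held 207 and 742, 557 and 270, and 13 and 1895 barcodes in KO and WT eHCC. A gene was counted where the 2 sets together held at least 50 UMIs, and called where its CPM differed at least 2-fold. Of the macrophages themselves 45 of 73 in KO and 491 of 608 in WT eHCC had at least 3 C1q UMIs, so the C1q barcodes are the nearest set for most of them.

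Some genes of lipid uptake and storage were higher than in C1q barcodes. Of 22 lipid-associated macrophage genes, 9 of 20 counted were at least 2-fold higher in KO eHCC with none lower, and 5 of 22 were higher and 2 lower in WT eHCC. Over all genes 2.82% and 6.79% were at least 2-fold higher and the medians were 0.05 and 0.07, against list medians of 0.90 and 0.60. Fabp5, a fatty acid binding protein, stood at 2599 against 623 CPM in KO (log2 ratio 2.06, 1.98 to 2.14) and at 515 against 122 CPM in WT (2.08, 1.99 to 2.17). Cd9, a tetraspanin, was higher by 1.61 (1.43 to 1.79) and 2.24 (2.18 to 2.30). Trem2 was higher by 2.06 (1.83 to 2.30) in KO and by 0.57 (0.50 to 0.63) in WT. Lpl, which releases fatty acids from lipoproteins, was higher by 0.89 (0.75 to 1.04) and 2.37 (2.29 to 2.46). All 4 genes were higher in both libraries; the intervals of Fabp5 overlapped between them, and those of Cd9, Trem2 and Lpl did not.

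Matrix and protease genes followed. Fn1 encodes fibronectin, which is not part of the rule: it stood at 225 against 77.6 CPM in KO (1.54, 1.29 to 1.78) and 1858 against 701 CPM in WT eHCC (1.41, 1.37 to 1.44). With macrophages chosen on Gpnmb alone the KO value turned to -0.80 and the WT value came to 0.96, under 2-fold. Ly6c2 barcodes held 688 CPM of Fn1 in KO, above the macrophages, and 1255 CPM in WT, below them. Mmp12, macrophage elastase, was higher by 1.73 (1.60 to 1.86) and 1.37 (1.22 to 1.51), although it was found in only 28.8% and 17.3% of the macrophages. F10, coagulation factor X, was higher by 1.86 (1.63 to 2.10) and 1.60 (1.46 to 1.75). Cd24a, a surface glycoprotein, was higher by 2.40 (1.82 to 3.02) and 2.46 (2.31 to 2.62). Slc7a11, the cystine transporter, was higher by 1.28 (0.89 to 1.68) and 1.29 (1.07 to 1.51), but by 0.89 and 0.41 in barcodes thinned to 2000 UMIs.

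Some of the highest ratios were found in WT eHCC. F7, coagulation factor VII, stood at 76.6 against 1.99 CPM (5.27, 4.63 to 5.99), Arg1, arginase, at 347 against 10.04 CPM (5.11, 4.83 to 5.41), Atp6v0d2, a proton pump subunit of lysosomes and osteoclasts, at 66.4 against 3.68 CPM (4.17, 3.70 to 4.69) and Slc7a2, a carrier of arginine, at 65.4 against 4.17 CPM (3.97, 3.52 to 4.45). Pdpn, podoplanin, was higher by 3.30 (2.90 to 3.73). In KO eHCC Arg1 was also higher, by 2.42 (2.24 to 2.60), but it lay in 13 of 73 macrophages and 76.7% of its UMIs in 5 of them.

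Interferon response genes were mostly at least 2-fold lower than in C1q barcodes in KO, and few were in WT. MHC class II genes had medians of -0.82 in KO and -0.75 in WT, with 1 of 7 and 2 of 10 at least 2-fold lower, and the ratios of H2-Aa, a class II alpha chain, were under 2-fold at -0.72 (-0.76 to -0.67) and -0.92 (-0.94 to -0.90). Interferon-stimulated genes had a median of -1.74 in KO, where 19 of 24 were at least 2-fold lower, and of -0.62 in WT, where 4 of 24 were; over all genes 3.24% and 3.07% were at least 2-fold lower. In KO, Ifit1 stood at 12.3 against 109 CPM (-3.15, -3.90 to -2.48) and Isg15, a ubiquitin-like protein, at 274 against 945 CPM (-1.79, -1.94 to -1.64). In WT Isg15 did not differ beyond counting error (70.5 against 66.7 CPM, 0.08, -0.07 to 0.23). Gbp2, a guanylate binding protein, was lower in both, by -1.73 (-2.00 to -1.47) and -1.50 (-1.76 to -1.25), as was the serpin Serpina3g, by -2.71 (-3.27 to -2.20) and -1.71 (-2.03 to -1.41).

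Cell cycle genes were higher than in C1q barcodes, with medians of 1.67 in KO (14 of 16 at least 2-fold higher) and 1.10 in WT (10 of 20). Over all genes 2.82% in KO and 6.79% in WT were at least 2-fold higher. Median depth was 17323 and 19065 UMIs in the macrophages and 14330 and 13828 UMIs in C1q barcodes, and its part was not tested. These medians were not taken again without barcodes marked as doublets, a setting that changed the cell cycle median of KO against WT below. At 2000 UMIs per barcode, 16 of 73 KO eHCC (21.9%, 13.1 to 33.1) and 113 of 603 WT eHCC macrophages (18.7%, 15.7 to 22.1) had 3 or more UMIs of the 20 cell cycle genes. Those intervals overlap. Phase was not called from these counts.

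Against Ly6c2 barcodes, which carry monocyte RNA, the macrophages were higher in the lipid list (median 2.45 in KO with 19 of 21 at least 2-fold higher, and 1.43 in WT with 17 of 21) and lower in 18 monocyte genes (median -1.76 with 16 of 17 at least 2-fold lower, and -1.03 with 9 of 17). The shares over all genes were 6.20% and 12.8% higher and 7.35% and 2.73% lower. Mmp12 stood at 844 against 1.35 CPM in KO and 128 against 1.44 CPM in WT. The Ly6c2 set holds no barcode with 3 or more C1q UMIs, while most of the macrophages have them. Among the 22 KO and 72 WT macrophages that met the same C1q and Ly6c2 limits, Mmp12 stood at 0 (0 to 8.06) and 14.3 CPM. Cd63 stood at 269 and 251 CPM in them, against 33.4 and 37.1 CPM in the Ly6c2 set, and Plac8 at 3865 and 980 CPM, against 6466 and 2580 CPM. Trem2 stood at 52.4 CPM in the 22 KO macrophages, against 55.9 CPM in the KO Ly6c2 set. Over all macrophages, Vcam1, an adhesion molecule, was higher by 6.93 (6.33 to 7.60) and 4.32 (3.51 to 5.28), Gdf15, a stress-induced cytokine, by 5.32 (4.98 to 5.68) and 4.09 (3.55 to 4.68), and the lysosomal tetraspanin Cd63 by 4.94 (4.76 to 5.14) and 3.78 (3.53 to 4.04). Plac8 was lower by -1.95 (-2.01 to -1.89) and -2.80 (-2.86 to -2.75).

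The comparison with Fcrls barcodes was possible only in WT eHCC, since KO eHCC had 13 of them. The 1895 barcodes had a median of 16618 UMIs. Genes that accompany Fcrls in tissue macrophages, other than Fcrls, were lower: 8 of 12 counted were at least 2-fold lower (2.25% over all genes), with a median of -1.43. The 2 sets were split on Fcrls, so lower levels of genes that go with it can follow from the split and are a description only. Gpr34, a lysophospholipid receptor, stood at 10.5 against 102 CPM (-3.29, -3.55 to -3.03), Tmem119 at 47.8 against 244 CPM (-2.35, -2.48 to -2.23) and Ms4a7 at 164 against 957 CPM (-2.55, -2.61 to -2.48). Apoe, a lipid carrier, was lower by -2.19 (-2.19 to -2.18) and Trem2 by -0.87 (-0.92 to -0.83), so Trem2 was not highest in the macrophages with Spp1 or Gpnmb. Monocyte genes were higher, with a median of 1.64 and 12 of 18 at least 2-fold (10.6% over all genes, median 0.21). Chil3, a chitinase-like protein, stood at 6162 against 1115 CPM (2.47, 2.45 to 2.48), Fn1 was higher by 1.62 (1.59 to 1.64), Arg1 by 2.12 (2.05 to 2.19) and Ear2, an eosinophil-type ribonuclease found in monocytes, by 2.82 (2.69 to 2.95). Cav1, the coat protein of caveolae, stood at 28.0 against 2.86 CPM (3.29, 2.96 to 3.63), and its ratio came to 0.78, under 2-fold, with macrophages chosen on Gpnmb alone.

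**Figure D2:**
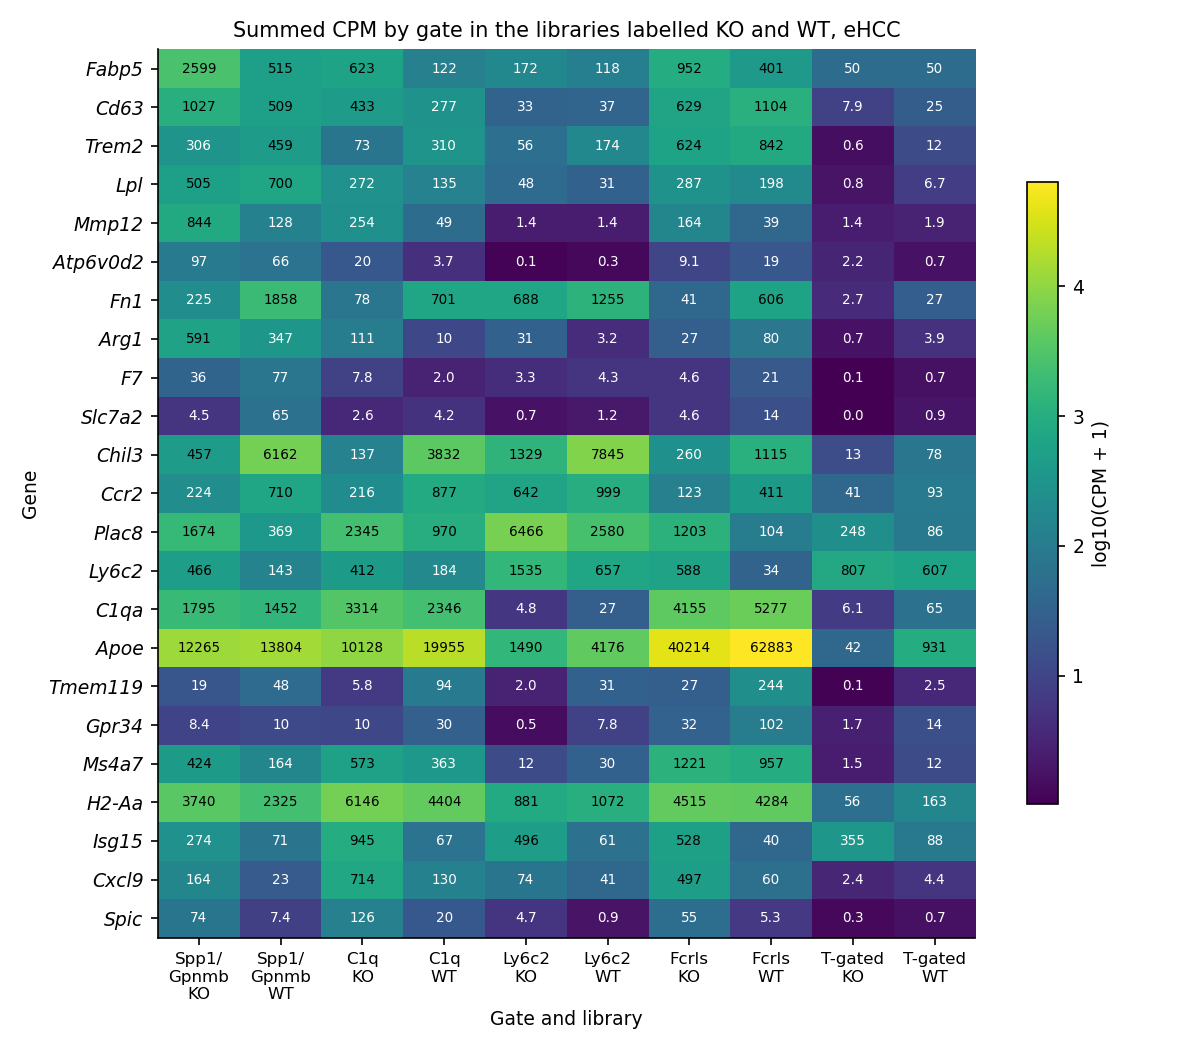
Summed CPM (numbers, and colour as log10 of CPM + 1) of 23 genes in rows by gate and eHCC library in columns. The Spp1 or Gpnmb macrophages lead in Fabp5 within KO and in Fn1 and Arg1 within WT, while Apoe, Tmem119 and Gpr34 peak in the Fcrls gate of WT (13 barcodes in KO).

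Macrophages with both genes differed from those with Spp1 alone. The split uses Gpnmb, so Gpnmb itself is left aside. In KO eHCC 25 barcodes with both and 30 with Spp1 alone were compared, with median depths of 16563 and 17290 UMIs, and in WT eHCC 149 and 450, with 21626 and 18382 UMIs. Of the lipid-associated genes, 15 of 20 in KO and 13 of 21 in WT were at least 2-fold higher with both genes (6.33% and 2.78% over all genes), with medians of 1.54 and 1.29. Lysosomal genes had medians of 0.82 and 0.79, with 8 of 23 and 9 of 25 at least 2-fold higher. None of either list was 2-fold lower. Fabp5 stood at 2911 against 318 CPM in KO (3.19, 2.98 to 3.41) and at 1499 against 116 CPM in WT (3.70, 3.60 to 3.79). Cd63 was higher by 2.63 (2.39 to 2.89) and 2.07 (1.99 to 2.14). Lipa, the acid lipase that breaks down cholesteryl esters in lysosomes, was higher by 2.35 (1.97 to 2.74) and 1.80 (1.68 to 1.91), and Hmox1, which degrades haem, by 2.63 (2.33 to 2.94) and 1.57 (1.43 to 1.72). Ctsd, the aspartic protease cathepsin D, stood at 2350 against 856 CPM and 4282 against 873 CPM (1.46, 1.31 to 1.61, and 2.29, 2.25 to 2.33). Trem2 was higher by 2.50 (2.06 to 2.97) in KO and by 0.59 (0.51 to 0.66) in WT.

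Ctsd is shown as a lysosomal gene with E-box letters near its start, to set beside the Gpnmb window printed above. Its 250 upstream bases lie at chr7:142387828-142388077 on the minus strand (GRCm38.p6, RefSeq, capitals as before).
Ctsd: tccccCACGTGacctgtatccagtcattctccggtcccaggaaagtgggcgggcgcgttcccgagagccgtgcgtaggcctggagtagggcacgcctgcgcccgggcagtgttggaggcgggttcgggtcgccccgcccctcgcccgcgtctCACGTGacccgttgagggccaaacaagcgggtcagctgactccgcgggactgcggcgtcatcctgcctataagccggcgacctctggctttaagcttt
It held CACGTG at 245 and at 98 bases before the gene start, where Gpnmb held none.

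Some monocyte genes were lower in the barcodes with both genes. Ccr2, the chemokine receptor through which monocytes leave the marrow, stood at 106 against 407 CPM in KO (-1.94, -2.37 to -1.52) and 370 against 845 CPM in WT (-1.19, -1.28 to -1.11). Il1b, an inflammatory cytokine, was lower by -1.28 (-1.52 to -1.05) and -1.47 (-1.56 to -1.39). For Plac8 the ratio was -1.24 (-1.38 to -1.11) in KO and -0.93 (-1.04 to -0.82), under 2-fold, in WT. The list of 18 had medians of -0.97, with 6 of 13 at least 2-fold lower, and -0.43, with 3 of 18 (4.84% and 6.30% over all genes). Cell cycle genes were lower in KO, with a median of -1.07 and 9 of 15 at least 2-fold lower. Some RNA of other cell types was also higher with Spp1 alone. S100a8 stood at 12.8 CPM with both genes and 5670 CPM with Spp1 alone in KO. In WT, Alb stood at 91.0 and 2557 CPM and Col1a1 at 5.74 and 323 CPM. The part of such RNA in the list counts was not tested.

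In WT eHCC the level of Spp1 allowed a further split, into 274 barcodes with 3 to 9 UMIs of Gpnmb and Spp1, 205 with 10 to 99 and 129 with 100 or more. Since Spp1 chose the strata, only other genes are given. From the lowest to the highest stratum Arg1 stood at 72.0, 340 and 741 CPM, F7 at 13.8, 77.8 and 163 CPM, Lpl at 244, 577 and 1472 CPM and Ctsd at 771, 1522 and 3684 CPM. Fn1 stood at 1073, 2142 and 2650 CPM. In the other direction, H2-Aa stood at 3208, 2336 and 1073 CPM and Plac8 at 703, 225 and 57.2 CPM. Median depth also differed, at 16866, 19553 and 25700 UMIs, and its part was not tested. Ccr2 was alike in the lower strata, at 825 and 865 CPM, and stood at 381 CPM in the highest. Between the highest and the lowest stratum 8 of 10 MHC class II genes were at least 2-fold lower (median -1.57, against 4.99% and a median of 0.05 over all genes) and 10 of 21 lipid-associated genes at least 2-fold higher (median 0.97, against 6.21%). Flt3, a receptor of dendritic cells and their precursors, with 5 against 116 UMIs, was lower by -4.05 (-5.70 to -2.78). It was found in 69 of 274 barcodes (25.2%) of the lowest stratum and 21 of 205 (10.2%) of the middle one. The strata thus also differed in cell content, and the part of barcodes with Flt3 in these ratios was not tested.

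**Figure D3:**
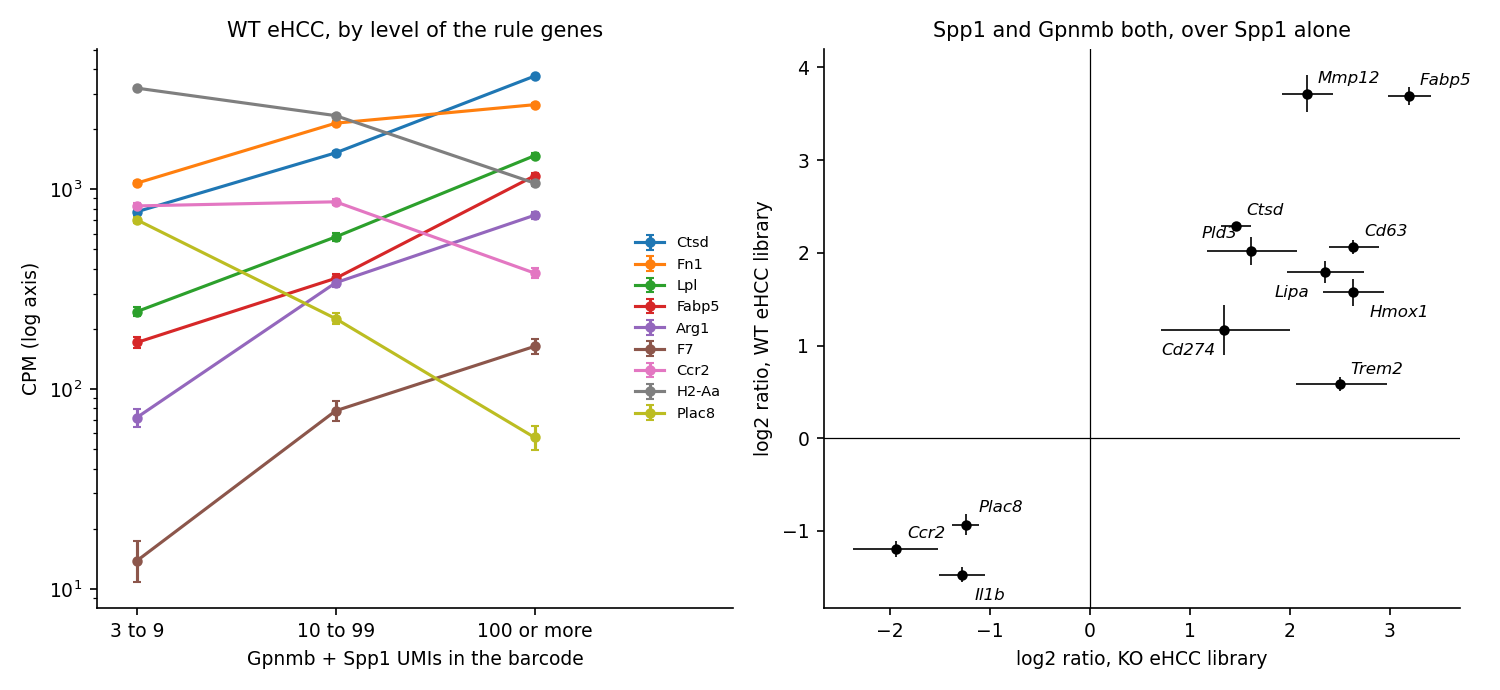
Left, CPM (log axis, exact 95% intervals) of 9 genes in WT eHCC macrophages by their UMIs of Gpnmb and Spp1; Ctsd, Fn1, Lpl, Fabp5, Arg1 and F7 climb, H2-Aa and Plac8 go down. Right, log2 ratios (95% intervals) of barcodes with Spp1 and Gpnmb over barcodes with Spp1 alone, KO eHCC on the x axis and WT eHCC on the y axis; the 12 genes lie in 2 quadrants of like sign.

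The last comparison set the 73 macrophages of the library labelled KO against the 608 of the library labelled WT in eHCC. Mef2d RNA itself was not lower with the KO label: it stood at 63.0 and 62.2 CPM in the premalignant and 91.1 and 57.2 CPM in the eHCC barcodes labelled KO and WT, and the eHCC ratio was 0.67 (0.40 to 0.93). The ratio was 0.58 in T-gated barcodes. Reads outside a deleted part would still be counted, so this does not check the label. Mef2a, a related factor, was lower by -1.19 (-1.43 to -0.96). Over 10048 genes, 409 (4.07%) were at least 2-fold higher and 1502 (14.9%) at least 2-fold lower in KO, and the median was -0.14. The shares were 2.99% and 9.28% in T-gated, 4.22% and 10.1% in C1q and 4.03% and 5.05% in Ly6c2 barcodes of the same libraries. Below, the ratio in T-gated, C1q and Ly6c2 barcodes stands beside each gene where it bears on the result. List counts of KO against WT below are to be set against the 4.07% higher and 14.9% lower over all genes. The macrophages of the 2 libraries also differed in make-up, since 61.6% in KO and 80.8% in WT had at least 3 C1q UMIs and 58.9% and 26.0% had Gpnmb.

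Among lipid and lysosomal genes, levels were split. Fabp5 stood at 412 CPM (KO) and 322 CPM (WT) in premalignant and 2599 CPM (KO) and 515 CPM (WT) in eHCC barcodes, an order kept below wherever 4 levels are given, and the eHCC ratio was 2.34 (2.28 to 2.39), against 0.01 in T-gated, 2.35 in C1q and 0.54 in Ly6c2 barcodes. The premalignant levels here and below come from 10 and 19 barcodes that fitted the name less well, so no pattern is read from them. Lgals3, galectin-3, stood at 991, 1035, 5659 and 1792 CPM (1.66, 1.62 to 1.69), and the lipid droplet coat gene Plin2 was higher by 1.74 (1.65 to 1.83). Ctsb, cathepsin B, stood at 575, 1447, 3845 and 1201 CPM (1.68, 1.63 to 1.72). Cd9 stood at 495, 343, 406 and 1146 CPM (-1.50, -1.62 to -1.38), so it was lower in KO eHCC than in WT eHCC. Trem2 stood at 25.2, 144, 306 and 459 CPM, and its eHCC ratio of -0.59 (-0.73 to -0.45) was smaller in size than the -2.08 of C1q barcodes. Apoe (-0.17, -0.19 to -0.15) and Ctsd (-0.03, -0.08 to 0.03) were close to equal. Of 21 lipid-associated genes 6 were at least 2-fold higher and 2 lower, with a median of 0.37. In macrophages chosen on at least 3 Gpnmb UMIs alone, the ratios of Fabp5, Ctsb and Cd63 came to 0.95, 0.69 and 0.20, from 2.34, 1.68 and 1.01.

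Of the MiT/TFE factors, which control lysosomal genes, Mitf did not differ beyond counting error (34.9 and 39.5 CPM, -0.18, -0.61 to 0.23). Tfec stood at 25.2 and 50.2 CPM (-0.99, -1.50 to -0.53). Flcn, a partner in their control, was the only one of the 7 counted at least 2-fold apart (1.07, 0.68 to 1.45), and it came to 0.98 without the barcode of each library with most of its UMIs and to 0.45 among macrophages chosen on Gpnmb alone. Cd44, a receptor for osteopontin, stood at 406 and 417 CPM (-0.04, -0.16 to 0.08). Of 8 counted receptor genes of osteopontin and related ligands 1 was at least 2-fold higher and 2 lower, against 4.07% and 14.9% over all genes. With so few genes no direction is read from this.

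Matrix genes differed in both directions. Fn1 stood at 361, 180, 225 and 1858 CPM in the 4 libraries. Its eHCC ratio was -3.05 (-3.20 to -2.89), against -3.18 in C1q and -0.87 in Ly6c2 barcodes. In T-gated barcodes the ratio was -3.29, at levels of 2.75 and 26.9 CPM. Mmp12 stood at 0, 2.15, 844 and 128 CPM (2.73, 2.62 to 2.83) and Mmp13, collagenase 3, at 0, 0, 125 and 17.1 CPM (2.88, 2.59 to 3.16), with 47.9% of the WT Mmp13 UMIs in 1 barcode. Mmp12 was also higher in KO in C1q barcodes, at 254 (KO) and 49.5 CPM (WT), but not in T-gated (1.44 and 1.94 CPM) or Ly6c2 barcodes (1.35 and 1.44 CPM). Of 20 matrix genes 4 were at least 2-fold higher and 8 lower, with a median of -0.33. That count includes Sparc and Col1a1, 89.6% and 98.1% of whose WT UMIs lay in 5 barcodes. Without macrophages that had at least 1% of UMIs from markers of other cell types, the median was 0.08, and with UMIs thinned to 2000 per barcode it was 0.43, so the list had no direction that held in these settings.

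Monocyte genes were also split. Chil3 stood at 12.6, 88.0, 457 and 6162 CPM (eHCC ratio -3.75, -3.86 to -3.64), against -4.81 in C1q, -2.56 in Ly6c2 and -2.59 in T-gated barcodes. Ccr2 stood at 265, 311, 224 and 710 CPM (-1.67, -1.83 to -1.51). It was also lower in KO than in WT eHCC in C1q (216 and 877 CPM), Ly6c2 (642 and 999 CPM) and T-gated barcodes (41.0 and 93.5 CPM). Ly6c2 (1.70, 1.58 to 1.83) and Plac8 (2.18, 2.11 to 2.25) were higher in KO, and Plac8 stood at 932, 693, 1674 and 369 CPM. The ratio of Plac8 was also above 2-fold in T-gated (1.53), C1q (1.27) and Ly6c2 barcodes (1.33), and that of Ly6c2 was 0.41, 1.16 and 1.22 in the same sets, the last of which was chosen on that gene. Of 18 monocyte genes 4 were at least 2-fold higher and 7 lower.

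Genes that accompany Fcrls in tissue macrophages were lower in KO, though Fcrls is at 0 by rule in both: 8 of 12 were at least 2-fold lower and 2 higher, with a median of -1.38. The list's median was -1.78 in C1q, -2.27 in Ly6c2 and -2.77 in T-gated barcodes. Cx3cr1, the fractalkine receptor, stood at 39.4 and 179 CPM (-2.19, -2.58 to -1.82), and P2ry12, a nucleotide receptor, at 7.75 and 37.1 CPM (-2.26, -3.22 to -1.44). Tmem119 stood at 18.7 and 47.8 CPM (-1.35, -1.94 to -0.81), and at -0.63 among barcodes with 6 or more UMIs of Gpnmb and Spp1. Ccl8 (4.14, 3.84 to 4.45) and Folr2, a folate receptor (3.78, 2.92 to 4.68), went the other way, with 27.1% and 75.0% of their KO UMIs in 1 barcode.

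Interferon-stimulated genes were higher in KO: 15 of 23 were at least 2-fold higher and none lower, with a median of 1.22. The median was 1.11 in T-gated, 1.70 in Ly6c2 and 2.24 in C1q barcodes, so the macrophages with Spp1 or Gpnmb stood near the T-gated barcodes and below both other myeloid sets. Isg15 stood at 33.6, 232, 274 and 70.5 CPM (1.96, 1.79 to 2.13) and was found in 76.7% of KO and 22.4% of WT eHCC macrophages, against 64.0% and 24.7% of T-gated barcodes; after thinning the macrophages' shares were 38.4% and 7.13%. Irf7, a factor that amplifies interferon production, stood at 8.40, 114, 216 and 39.3 CPM (2.46, 2.25 to 2.66). Gbp2 was higher by 2.61 (2.29 to 2.94). Cxcl9, an interferon-gamma target, was higher by 2.84 (2.60 to 3.09), with 53.9% of KO and 60.1% of WT UMIs in 1 barcode each. MHC class I and peptide loading genes were higher too, 8 of 13 at least 2-fold and none lower (median 1.10, against 0.48 in T-gated barcodes): H2-Q7 by 2.22 (2.02 to 2.43), Tap1, a peptide transporter, by 1.45 (1.22 to 1.68), H2-K1 by 1.10 (1.04 to 1.16) and B2m by 1.08 (1.04 to 1.13). Among macrophages chosen on Gpnmb alone H2-K1 came to 0.90 and B2m to 0.82, under 2-fold. Class II genes had a median of -0.22, with 0 of 10 at least 2-fold higher and 2 lower, against 4.07% and 14.9% over all genes.

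**Figure D4:**
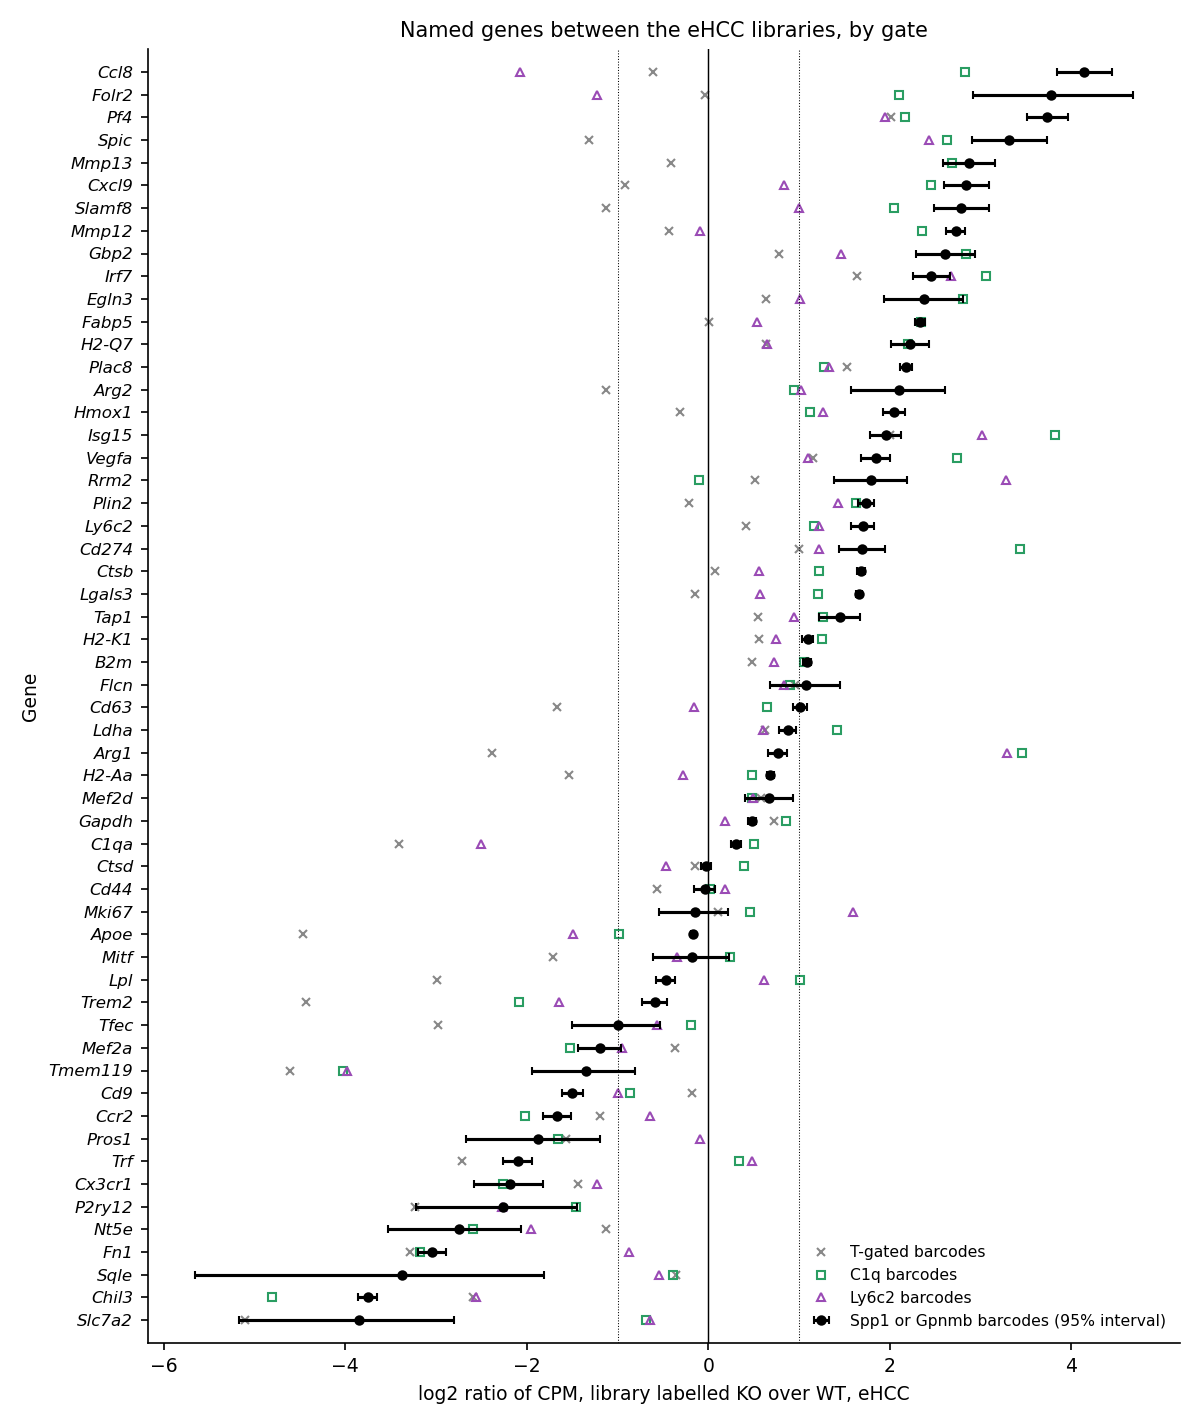
log2 ratios of CPM (x axis) of named genes (y axis) between the eHCC libraries labelled KO and WT, for macrophages with Spp1 or Gpnmb (black, exact 95% intervals) and for T-gated, C1q and Ly6c2 barcodes; dotted lines mark 2-fold, and genes with under 3 UMIs in a library are left out. Isg15 and Irf7 lie right of 1 in all 4 gates, Fabp5 and Mmp12 in the macrophages and C1q barcodes.

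Glycolysis and hypoxia genes had a median of 0.81 in KO against WT, 9 of 20 at least 2-fold higher and none lower, against 0.62 in T-gated and 1.11 in C1q barcodes. Vegfa, an angiogenic factor, stood at 134, 118, 302 and 84.1 CPM (1.85, 1.69 to 2.005), Egln3, an oxygen sensor, at 48.5 and 9.36 CPM in eHCC (2.37, 1.93 to 2.80), Ldha was higher by 0.88 (0.78 to 0.97) and Gapdh by 0.48 (0.43 to 0.53). Iron and haem genes had a median of 0.69: Hmox1 was higher by 2.05 (1.92 to 2.17), while Trf, transferrin, was lower by -2.10 (-2.26 to -1.94). For Trf the ratio was -0.56 without the barcodes that had 1% or more of UMIs from markers of other cell types. Cell cycle genes had a median of 1.02, with 10 of 20 at least 2-fold higher, and of -0.020 once barcodes marked as doublets were removed. Rrm2, a nucleotide reductase, turned from 1.80 to -0.92 in that setting, and Mki67 did not differ beyond counting error (-0.15, -0.54 to 0.22).

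Among arginine genes, Arg1 stood at 0, 2.15, 591 and 347 CPM (0.77, 0.66 to 0.87), with UMIs in 13 of 73 KO and 240 of 608 WT eHCC macrophages (17.8% and 39.5%, against 0.715% and 1.96% of T-gated barcodes). After thinning the shares were 15.1% and 21.7%. Arg1 was thus higher in CPM in KO but found in a smaller share of barcodes, and the ratio was -0.43 among macrophages chosen on Gpnmb alone. In C1q and Ly6c2 barcodes it was 3.46 and 3.29. Arg2 was higher by 2.10 (1.58 to 2.61), and Slc7a2 was lower, with 7 against 824 UMIs (-3.85, -5.17 to -2.80).

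Outside the lists, the highest ratios that passed the naming rule were those of Spic, a factor of iron-recycling macrophages (73.7 and 7.38 CPM, 3.32, 2.91 to 3.73), Slamf8, a surface receptor of phagocytes (2.79, 2.48 to 3.09), and Mmp12. Spic was higher by 2.63 in C1q and 2.44 in Ly6c2 barcodes. The lowest were Cdh1, E-cadherin, with 1 against 518 UMIs (-5.99, -11.30 to -3.51), Spink2, a protease inhibitor, with 1 against 389 (-5.58, -10.89 to -3.09), and Cav1 with 1 against 353 (-5.44, -10.75 to -2.95). Cdh1 stood at 41.1 CPM in WT macrophages and at 46.3 CPM in WT T-gated barcodes, so its WT level was no higher than in cells of another type. Cav1 stood at 28.0 CPM in WT macrophages and at 1.94 CPM in WT T-gated barcodes, and its ratio was -5.42 in C1q barcodes. Pf4, platelet factor 4, was higher by 3.74 (3.51 to 3.97), with 31.2% of KO UMIs in 1 barcode.

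**Figure D5:**
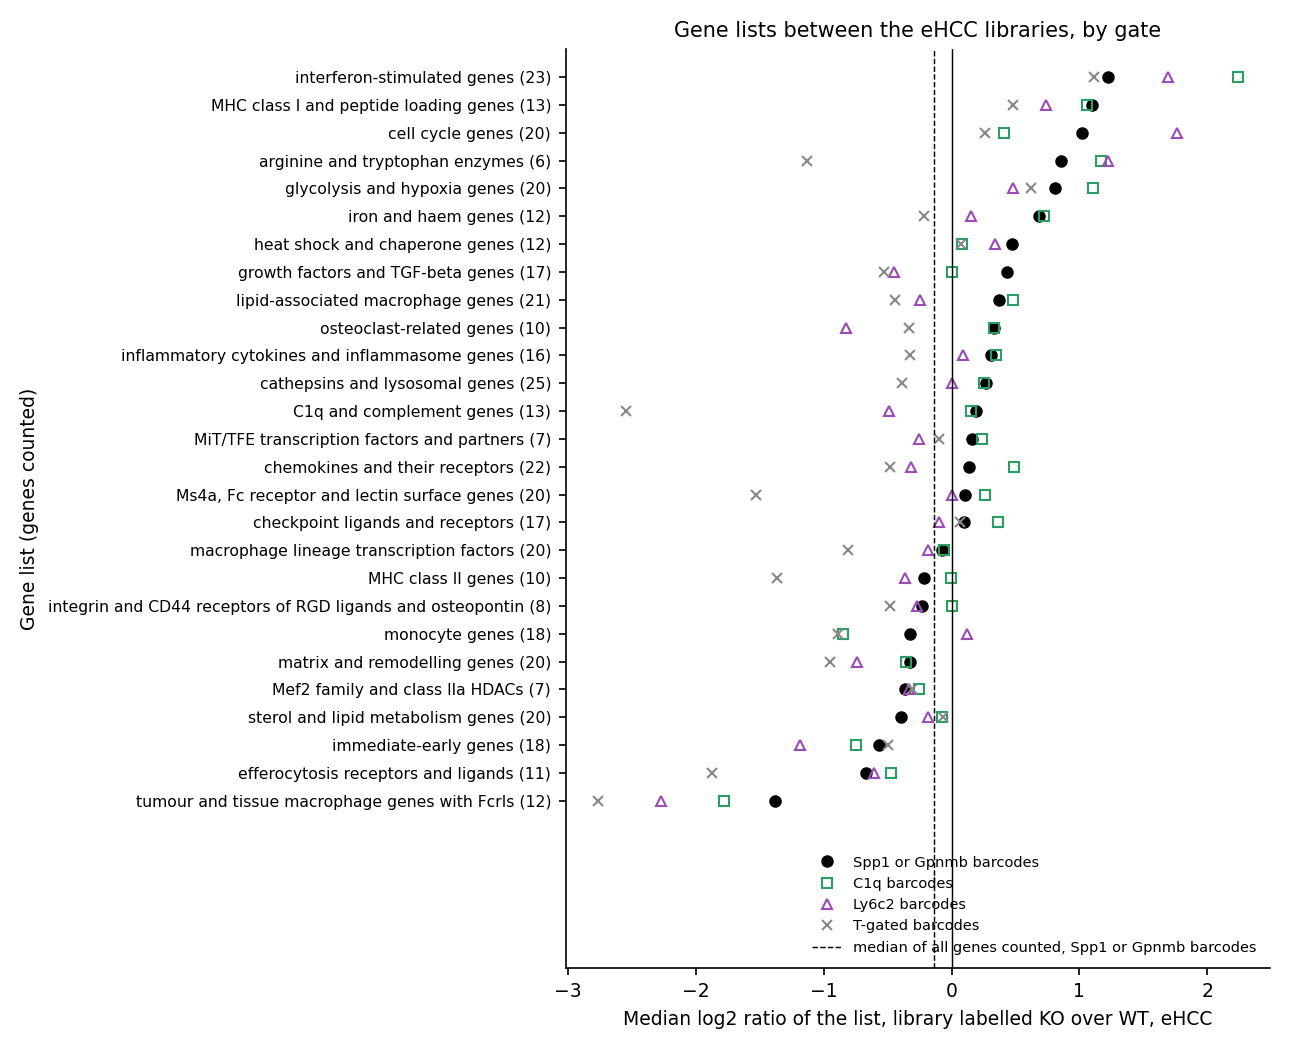
Median log2 ratio (x axis) of each gene list with at least 5 genes counted (y axis, number counted in brackets) between the eHCC libraries labelled KO and WT, in macrophages with Spp1 or Gpnmb and in 3 other gates; the dashed line is the median of all genes counted (-0.14). Interferon-stimulated genes lie between 1.11 and 2.24 in the 4 gates, and genes that accompany Fcrls between -2.77 and -1.38.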

How the data were processed

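Tissue was dissociated and made into droplet single-cell libraries with 10x chemistry, per the labels. The authors deposited 1 matrix per library of UMI counts per gene and barcode, and the file headers give Cell Ranger 3.0.1 as the software. According to the submitters' processing notes, bcl2fastq 2.20.0 was also used; those notes list mm10 and GRCh38 with no role for either. Barcodes with at least 500 UMIs, 300 genes and at most 25% mitochondrial UMIs passed. Counts were summed per gate and scaled to CPM with no further normalization. Intervals are exact (Clopper-Pearson for shares, conditional binomial for ratios) and treat UMIs as independent. Genes were counted at 50 UMIs or more over both sides. Thinned values draw 2000 UMIs per barcode and leave out shallower ones, 0 of 73 KO and 5 of 608 WT eHCC macrophages.

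Doublets were scored with scrublet in scanpy 1.11.5. Its own threshold marked 7.12%, 6.33%, 0.0112% and 1.82% of barcodes in the premalignant (KO, WT) and eHCC (KO, WT) libraries, so it did not work in KO eHCC. The highest scores, 0.8% per 1000 barcodes, were marked instead, which gave 701, 1483, 581 and 795 barcodes. They were kept, and removed as an alternative.

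The members, lists and tests were chosen with earlier results of these data known. List members were named by role; beyond lists, the 10 highest and 10 lowest ratios were eligible, with at least 100 UMIs, a UMI in at least 10% of barcodes and at most 20% of UMIs in 1 barcode on the higher side, and an interval excluding 0. Against other macrophages, such genes were ranked by the smaller ratio of the libraries compared and needed the same sign in all of them. Like signs in KO and WT for genes named that way therefore follow from the choice. Promoters came from RefSeq, GRCm38.p6. The ratio code was tested on simulated data. Other tools were Python 3.11.15, numpy 2.4.6, scipy 1.17.1, pandas 2.3.3 and matplotlib 3.10.9. Alternatives were other rules and limits for barcodes, other weights and scalings, and other count minimums. Aldoa, listed under 2 identifiers, was left out, and Clec7a was not analysed here.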

Additional observations from a re-analysis of the deposited data

Results flagged for a closer look

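Among the listed genes with at least 50 UMIs over both sides in each library, 3 were at least 2-fold higher than in C1q or Ly6c2 barcodes in one eHCC library and at least 2-fold lower in the other. Smaller differences of opposite sign are not given here. With 1 library per group these differences between libraries were not tested.

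Fabp4, a fatty acid binding protein, was higher than in C1q barcodes in KO eHCC (93 against 54 UMIs, log2 ratio 1.78) and lower in WT eHCC (1184 against 1944 UMIs, -1.04). Iigp1, an interferon-inducible GTPase, was lower than in Ly6c2 barcodes in KO eHCC (32 against 375 UMIs, -1.16) and higher in WT eHCC (229 against 21 UMIs, 1.59). Mmp9, gelatinase B, was higher than in Ly6c2 barcodes in KO eHCC (27 against 48 UMIs, 1.56) and lower in WT eHCC (114 against 262 UMIs, -3.06).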

How the results depend on the processing

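No paired analysis was possible because each group has 1 library, and for the same reason no replicate could be left out. Gene counts were not run in the premalignant libraries, with 10 and 19 barcodes. Some alternatives, such as those that set aside barcodes with RNA of other cell types, were chosen after seeing the data. With the rule on at least 3 Gpnmb UMIs alone, the log2 ratio of shares was -2.64 for KO against WT premalignant, -1.13 for KO against WT eHCC, 5.29 for eHCC against premalignant in KO and 3.78 in WT; 253 genes were at least 2-fold higher and 440 lower in KO eHCC; Apoe came to 0.18 and Arg1 to -0.43 in KO against WT eHCC, and Fn1 to -0.80 against C1q barcodes in KO eHCC. That Gpnmb rule left 1 KO and 9 WT premalignant barcodes, so its share ratios with a premalignant library rest on these few. With the rule on thinned UMIs the share ratios were -3.87 for KO against WT eHCC, 4.09 for KO and 7.58 for WT across stages. With marked doublets removed they were 0.84 for KO against WT premalignant and 6.66 for WT across stages, the cell cycle median was -0.020 and Rrm2 came to -0.92. Doublet marks fell on 1 of 10 KO and 12 of 19 WT premalignant barcodes, so these share ratios rest on the few left unmarked. Thinned to 2000 UMIs, 192 genes were at least 2-fold higher and 429 lower, and 223 and 592 when 200 UMIs were asked for; both settings leave fewer genes counted. With each barcode weighted equally C1qa came to -0.046. Where no construction shows it, the cause was not tested. Of 142 gene ratios of at least 2-fold, 124 stayed so in each alternative that gave a value. Depth limits genes with few UMIs in KO eHCC, among them Slc7a2, Cdh1, Spink2 and Cav1 with 1 to 7.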
